A study of Homo sapiens with 6 samples.

Results

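The comparison covers open chromatin in 22Rv1 cells, an established human prostate cancer line, in which FOXA1 carries a degradation tag (dTAG): 2 libraries labelled FOXA1_dTAG at 24 h were set against 2 labelled FOXA1_dTAG at 0 h, 4 of the 6 libraries of the series. Both groups share the tag, so the 0 h libraries are tagged cells at the start and not untagged cells. The degrading molecule, its dose, the clone and the level of FOXA1 protein are not given in the sources used here, and neither is whether replicates were separate cultures, so every p-value measures only the spread between these libraries, which may be technical. The 1 h libraries entered no test and are quoted only to place regions between both times. Peaks from the 4 lists were merged wherever they overlapped by at least 1 bp on the 22 autosomes and X, which gave 157937 regions. Merging all 6 lists, which can also join regions, gave 167726. Positions are hg19.

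FOXA1 is a forkhead protein that binds its sites on nucleosomal DNA and is known as a pioneer factor in luminal prostate cells, where it opens enhancers that the androgen receptor and other factors then use. A dTAG is a fused protein domain that a small molecule links to a ubiquitin ligase, so that the tagged protein is destroyed by the proteasome. ATAC-seq marks DNA that a transposase can reach: a peak's presence says that a site stood above its local background, its width how far that signal extended, and its summit where the signal was highest. The fold of a peak, the authors' deposited ratio of signal at the summit to local background, was compared between libraries only through ranks within a list, and folds are printed to describe single peaks. No sequence or gene annotation of the files' build was used, so regions are named by position only.

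Each library was ranked in 2 ways. The within-file percentile places a peak's fold among all peaks of its list, and the rank percentile places it among the kept regions alone, those with a peak in all 4 libraries. At 0 h 118259 and 125396 peaks were listed, and after 24 h 101755 and 114362 (exact two-sided permutation p = 0.333, the smallest that 2 libraries against 2 can give). The relative depth that the deposited values imply was 10.5 and 8.29 tags per kb in the 0 h libraries and 7.35 and 7.06 in the later ones. It was therefore lower in both 24 h libraries, and depth and time cannot be told apart. The shortest peaks measured 155 and 111 bp (0 h) and 147 and 136 bp (24 h). The 0 h replicates differed from each other in width, with list medians of 388 and 281 bp, and the 24 h medians, 341 and 327 bp, lay between them.

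Open regions were lost and gained in both replicates after 24 h, and most of them were weak. Of the 157937 regions, 75732 (48.0%) were kept in all 4 libraries. A further 13209 (8.36%) are called lost, since both 0 h libraries and neither 24 h library showed a peak there, which is 13.2% of the 100182 regions that both 0 h libraries held. In the other direction 5749 (3.64%) were gained, 6.56% of the 87596 regions in both 24 h libraries. Lost regions made up 69.7% of the 2 classes together. With every list shortened to its 101755 peaks of highest deposited −log10 p, not of highest fold, 9164 were lost and 7834 gained. The lost share was then 53.9%, and the excess of losses over gains fell from 2.30-fold to 1.17-fold. Leaving out a library eases the condition on its time and raised the counts. Omitting 0h replicate 1 gave 27047 lost and 8905 gained regions, and omitting 0h replicate 2 gave 23383 and 8806. Omitting 24h replicate 1 gave 16901 and 16810, nearly equal numbers, and omitting 24h replicate 2 gave 20867 and 10868. The other regions were found in 1 library (38259), in 1 library of each time (7632) or in 3 (17356). Of those in 3, 7626 lacked a peak only in 24h replicate 1, the shortest list, and 3615 only in 24h replicate 2, while 3040 and 3075 lacked one only in 0h replicate 1 and 2.

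The loss of single regions was larger between times than between replicates, and the gain was not when read from 1 pair of libraries at a time. Of the regions of a 0 h library, 24.1% to 30.0% had no peak in a 24 h library, compared with 14.3% and 16.2% in the other 0 h library. Of the regions of a 24 h library, 15.2% to 20.1% had none in a 0 h library, and between the 24 h libraries the shares were 11.3% and 21.2%. These shares depend on the length of the list that is searched. The ranges for losses did not overlap, and those for gains did.

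Losses and gains were alike in median strength and differed at the strong end. Median within-file percentiles were 32.5 and 33.4 for lost regions in the 0 h libraries and 31.2 and 33.9 for gained regions in the 24 h libraries. With a mean percentile of at least 25, 10.4% of the regions in both 0 h libraries were lost and 4.86% of those in both 24 h libraries gained, and with at least 50, 5.72% and 1.81%. At the strong end, 910 lost regions had a mean percentile of at least 75, which is 3.07% of such regions in both 0 h libraries, compared with 90 gained regions (0.345% of such regions in both 24 h libraries). From a percentile of 90 upward there were 216 lost regions (1.94%) and 2 gained ones of 10005. Lost peaks were 279 and 204 bp wide (medians in 0h replicate 1 and 2), and gained peaks 212 and 225 bp.

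The strongest lost region was 4:29277801-29278247, with folds of 24.1 and 21.2 at 0 h and widths of 447 and 339 bp. It had no peak in 1h replicate 1, a peak at percentile 28.0 in 1h replicate 2 and none at 24 h. The other 4 of the strongest 5 were 18:70856915-70857619, 13:85947403-85947835, 2:162701367-162701936 and 5:15798193-15798504, each at percentile 98.8 or above in both 0 h libraries. Where they had a peak at 1 h, its percentile was between 11.6 and 52.4, well below that at 0 h in every case.

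Width picked out other lost regions than strength did. The widest was 6:48860458-48861800, where peaks of 1326 and 1323 bp at 0 h ranked at percentiles 62.7 and 63.4. Its peaks at 1 h were 777 and 321 bp wide, at percentiles 19.7 and 19.6, and there was none at 24 h. The next were 8:8264277-8265593 (1317 and 785 bp), 9:85195434-85196548 (985 and 1051 bp), 7:116350787-116352138 (1320 and 679 bp) and X:113036959-113038213 (1255 and 700 bp). In all 5, every peak present at 1 h was narrower than both peaks at 0 h. The same holds for the within-file percentile.

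Gained regions were narrower at their widest and weaker at their strongest. The widest, X:13826351-13827409, had peaks of 1017 and 991 bp at 24 h, at percentiles 76.9 and 71.9, and already had peaks of 1036 and 665 bp at 1 h. It was followed by 7:42207244-42208108 (801 and 865 bp at 24 h), 3:108122044-108122915 (872 and 624 bp), 1:202195906-202196649 (737 and 738 bp) and 3:88762308-88763038 (718 and 731 bp). Among the gained regions 1:83190097-83190700 was the strongest, with 24 h folds of 16.4 and 13.5, at percentiles 98.1 and 93.8. At 1 h it stood at percentiles 82.0 and 52.4, below both 24 h values. The other 4 strongest, X:107602037-107602574, 2:151764876-151765452, 13:106216544-106216894 and X:122744885-122745260, had percentiles of 80.9 to 96.9 at 24 h.

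The 1 h libraries held some of both classes. Of the lost regions, 5901 (44.7%) lacked a peak in both 1 h libraries, 3777 (28.6%) had one in a single 1 h library and 3531 (26.7%) in both. Of the gained regions, 2247 (39.1%) had none at 1 h, 1942 (33.8%) had one in a single library and 1560 (27.1%) in both. By comparison, 97.7% and 98.2% of kept regions had a peak in 1h replicate 1 and 2. Kept regions, however, were chosen for a peak in all 4 libraries and had higher percentiles. Choosing regions for opposite presence at 0 h and 24 h favours mixed presence in any other library. The 1 h shares are therefore a description only, and so are the 1 h values of the named lost and gained regions.

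Among the 75732 kept regions, the order of strength changed between times by more than between replicates. Spearman's rho of the rank was 0.871 between the 0 h libraries and 0.877 between the 24 h libraries, and 0.732 to 0.754 in the 4 pairs of a 0 h with a 24 h library. These correlations are across regions, which are not independent replicates. The SD of the rank difference was 14.7 and 14.3 points within a time and 20.3 to 21.1 points between times. A difference of more than 20 points was found for 16.4% and 15.6% of regions within a time and for 25.3% to 28.1% between times. Every pair between times lay above both pairs within a time.

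**Figure D1:**
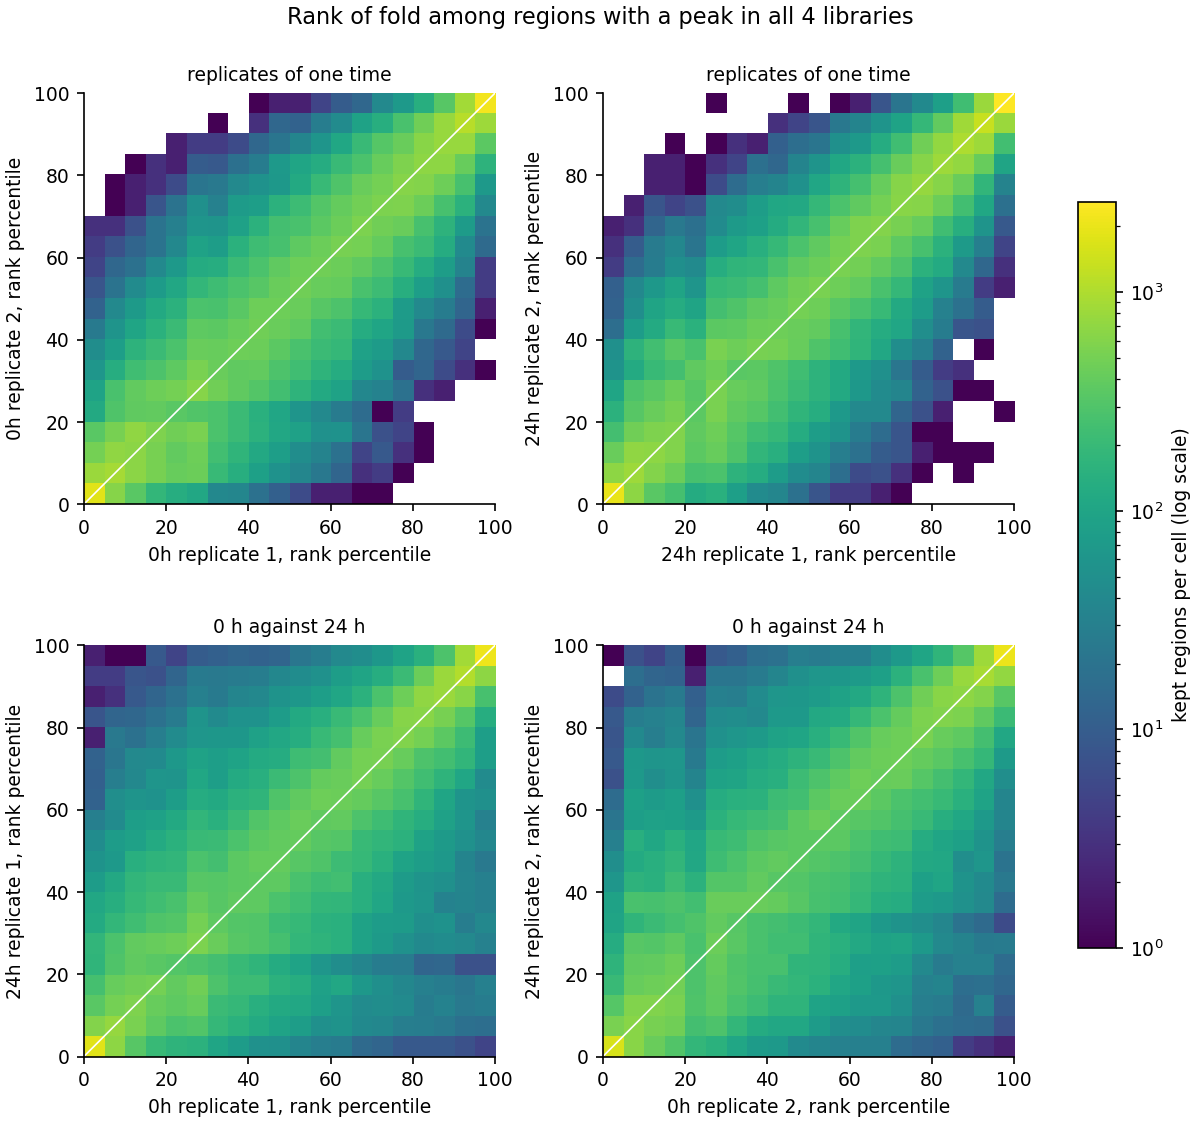
Rank percentile of fold in one library (x axis) and another (y axis) for the 75732 kept regions, counted in cells of equal size with a log colour scale; the upper panels pair replicates of one time and the lower panels a 0 h with a 24 h library. The lower panels spread farther from the diagonal and fill the corners where a region is strong at one time and weak at the other, which the upper panels leave empty.

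**Figure D2:**
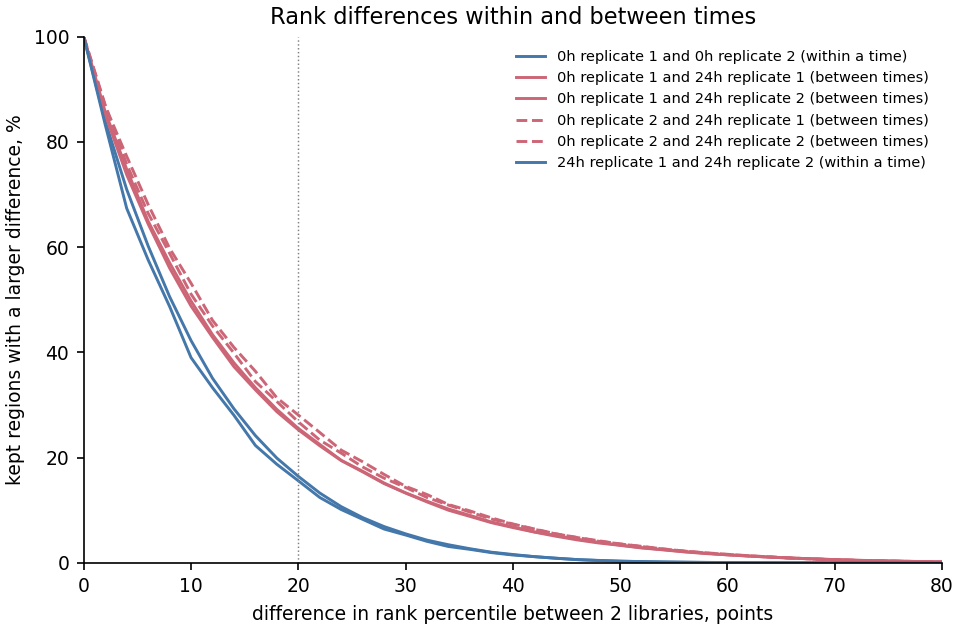
Share of the 75732 kept regions (y axis, %) whose rank percentile differs between 2 libraries by more than the number of points on the x axis, with replicates of one time in blue and 0 h with 24 h in red (dashed for 0h replicate 2); the dotted line marks 20 points. The red curves lie above the blue ones, at 25.3% to 28.1% compared with 15.6% and 16.4% at the dotted line.

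Whether single kept regions passed the test depended on the scale and on the deposited value that was ranked. On the rank percentile of the fold none passed, and on a normal scale 3142 did. limma on the rank percentile called 0 regions (0%) at an adjusted p of 0.05, with a smallest adjusted p of 0.0842, although 6811 regions were lower and 6988 higher at an unadjusted p under 0.05, 18.2% of those tested. The same fit on normal scores of the ranks, which stretch both ends of the scale, called 1702 regions lower at 24 h (2.25%) and 1440 higher (1.9%), with a smallest adjusted p of 0.00444. Omitting 0h replicate 1 gave 3325 lower and 3941 higher, and omitting 0h replicate 2 gave 2960 and 2886. A −log10 q minimum of 5 for every peak gave 1071 and 989. Ranking by the deposited −log10 p in place of the fold gave 3267 lower and 3583 higher on normal scores, and 2573 and 2576 on the rank percentile. With the fold, on the rank percentile, omitting 0h replicate 1 or 2 gave 493 and 194 regions that rose and none that fell. The classes below come from this second fit, and their use was decided after the first was known to call none. A count without a model gave 7310 regions (9.65%) with both 24 h ranks below both 0 h ranks and a mean shift of at least 20 points, and 7194 (9.5%) in the opposite direction. Of the regions that fell or rose in the normal-score fit, 1644 and 1387 were among these.

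Regions that fell went from the top of the list to its middle, and those that rose made the reverse move. Median within-file percentiles of the fallen regions were 91.4 and 90.3 at 0 h and 38.6 and 43.9 at 24 h, and those of the risen regions were 48.3 and 46.9 at 0 h and 87.9 and 89.0 at 24 h. These values chose the classes and are a description only. In the 1 h libraries the fallen regions had medians of 64.6 and 66.4 and the risen ones 70.2 and 75.7, both between their values at 0 h and 24 h. All kept regions had 66.4 and 68.0 there. Choosing regions for opposite values at 0 h and 24 h favours a place between them in any other library. The 1 h values therefore cannot show a graded change and are also a description only. All kept regions stayed between 61.7 and 68.0 in the 6 libraries. The median shift in rank was −52.6 points for fallen and 49.3 points for risen regions, compared with 0.37 points over all kept regions.

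**Figure D3:**
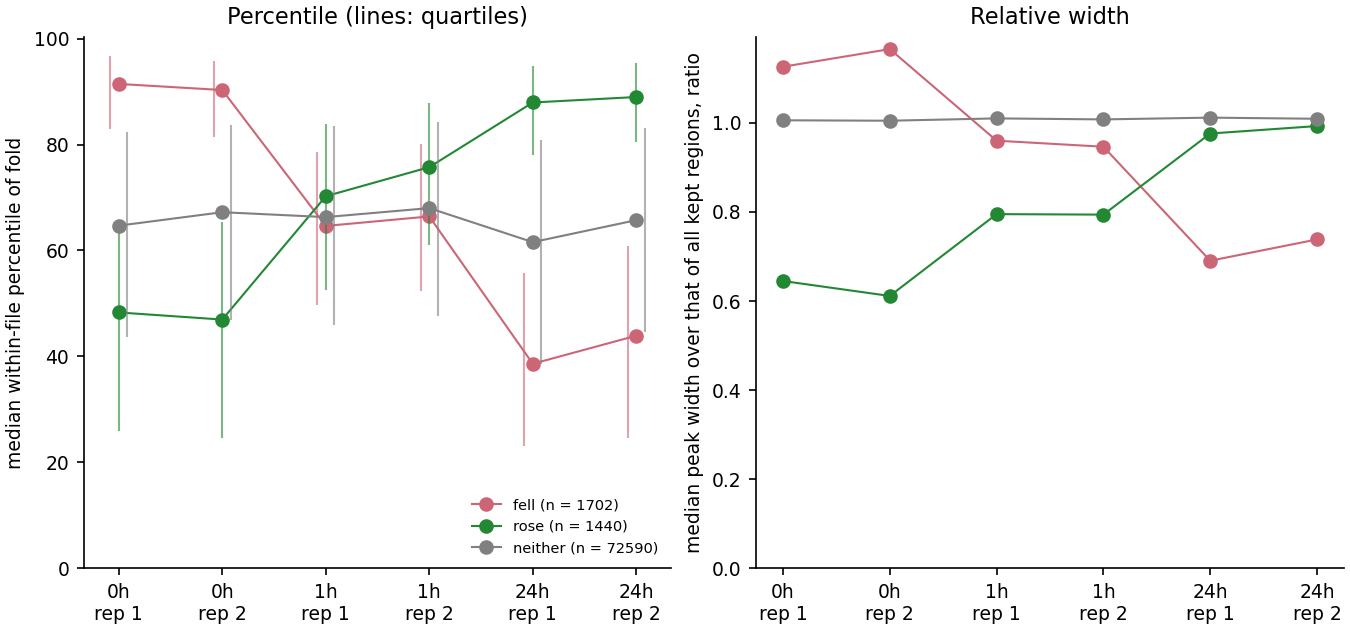
Median within-file percentile of fold with quartiles (left) and median peak width divided by that of all kept regions in the same library (right) in each of the 6 libraries, for kept regions that fell, rose or did neither in the normal-score fit. At 1 h the fallen regions sit at percentiles 64.6 and 66.4 and at relative widths of 0.960 and 0.947, between their 0 h and 24 h values in both panels. Choosing the classes on 0 h and 24 h folds favours such a place.

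The fallen regions also became narrower and the risen ones wider relative to kept regions. The fallen regions' median peak width was 571 and 471 bp in the 0 h libraries, 518 and 478 bp in the 1 h libraries and 290 and 316 bp in the 24 h libraries. The risen regions measured 327 and 247 bp, then 429 and 401 bp, then 410 and 425 bp. For all kept regions, the medians were 507 and 404 bp, 539.5 and 505 bp, and 420 and 428 bp in the same order. Divided by these, the widths of fallen regions were 1.13 and 1.17, then 0.960 and 0.947, then 0.690 and 0.738, and those of risen regions 0.645 and 0.611, then 0.795 and 0.794, then 0.976 and 0.993. In both classes the 1 h values lay between those of the other times. The classes were chosen on the fold at 0 h and 24 h, and width and fold come from the same peaks, so this is a description only.

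In points of rank, the largest fall among the called regions was at X:90585828-90586885, whose folds were 14.8 and 16.4 at 0 h and 3.85 and 3.58 at 24 h. Its rank went from 95.8 and 95.6 to 4.01 and 2.47, a shift of −92.5 ± 9.73 points (SE; limma adjusted p = 0.0842 on ranks and 0.00444 on normal scores), with 1 h percentiles of 42.0 and 42.1. The strongest peak of the region measured 1058 and 558 bp first, with summits at 90586681 and 90586644. Later it measured 284 and 292 bp, with summits at 90586002 and 90585876. Both 0 h summits lay outside every 24 h peak of the region. The fall in rank and the widths therefore compare different places within the region, not a single peak that narrowed and moved.

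The next 4 falls behaved alike in strength. At 4:89332592-89333187 the ranks were 98.6 and 96.1 at 0 h and 7.85 and 2.47 at 24 h, a shift of −92.2 points. There the strongest peak of 24h replicate 1, 147 bp wide with its summit at 89333037, did not reach the 0 h summits at 89332886 and 89332853. The ranks of that library and of the 0 h libraries thus belong to different places within the region. At 18:69349706-69350635 they were 99.7 and 98.6 and then 4.01 and 10.7, a shift of −91.8 points; on normal scores it fell farther (−3.99) than X:90585828-90586885 (−3.58). The shifts at 10:127600392-127601029 and 9:109095613-109096161 were −88.1 and −87.7 points. In each of these 5 regions the 0 h ranks were 94.6 or higher and the 24 h ranks 12.4 or lower, and normal-score adjusted p-values from limma were 0.00444 to 0.00693. At 1 h a peak was present throughout, at within-file percentiles of 35.5 to 76.9.

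The largest rise in points was at 7:120410276-120410738, with folds of 4.96 and 4.70 at 0 h and 17.1 and 15.9 at 24 h. Its rank went from 15.9 and 9.26 to 98.3 and 96.8, a shift of 84.9 ± 9.27 points (SE; limma adjusted p = 0.0842 on ranks and 0.00444 on normal scores), and its 1 h percentiles were 79.6 and 87.9. The summit stayed in place, at 120410508 and 120410465 first and 120410477 and 120410466 later. The shifts at 2:141778530-141779014, 6:23823669-23824062, 4:45033105-45033540 and 4:174046368-174046822 were 84.9, 83.7, 82.9 and 82.4 points. On normal scores 2:141778530-141779014 rose farther (3.57) than 7:120410276-120410738 (3.14). At 2:141778530-141779014 the 1 h percentiles were only 42.0 and 47.5, compared with 99.3 and 98.7 at 24 h, whereas in the other 4 they were between 64.6 and 91.2.

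Fallen regions were spread over chromosomes unevenly, and so were risen ones. Of kept regions, of which 2.25% fell and 1.9% rose in all, 3.98% fell on chromosome 13 and 3.25% on chromosome 4, compared with 0.805% on chromosome 19 and 0.967% on chromosome 22. The risen shares were highest on chromosomes 4 (2.92%), 5 (2.77%), 3 (2.68%) and 13 (2.67%), and lowest on chromosome 19 (0.490%). Regions of middle width held most of both: in 4 bins of 18933 kept regions each, from narrow to wide, 269, 746, 607 and 80 fell and 431, 613, 362 and 34 rose. The widest bin thus held the fewest in each direction.

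Kept regions near a lost region moved up in rank. The 3939 kept regions under 5 kb from a lost region had a median shift of 4.28 points, compared with 0.34 points at 5 to 20 kb and 0.11 points over 100 kb away. Between replicates the same 3939 regions differed by medians of 0.62 points at 0 h and −0.39 points at 24 h. They also started lower, at median 0 h ranks of 37.2 and 38.9, compared with 50.1 and 49.2 at 5 to 20 kb. Distance and starting rank were not separated. Of them, 3.38% rose and 1.57% fell, compared with 1.9% and 2.25% of all kept regions. The 1783 kept regions under 5 kb from a gained region had a median shift of −1.65 points, with 3.42% fallen and 2.08% risen, and at 5 to 20 kb the shift was 1.35 points. The distances were chosen after seeing the data, and the fold is a ratio to local background, not a measure of signal alone.

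**Figure D4:**
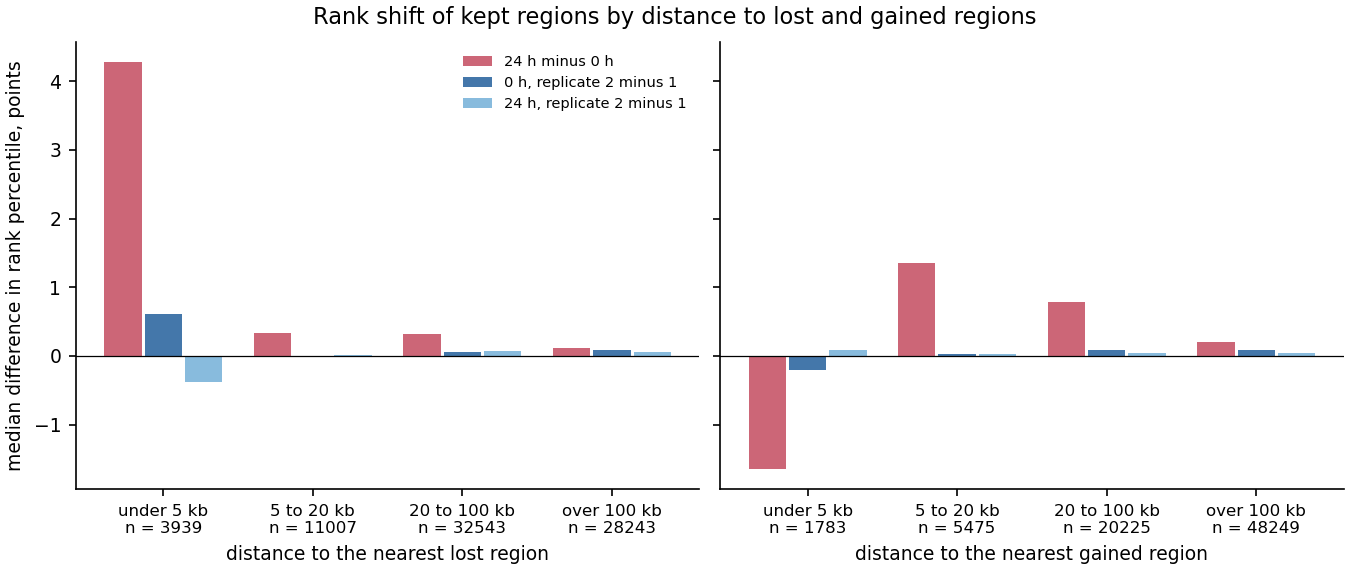
Median difference in rank percentile (y axis, points) of kept regions by distance to the nearest lost (left) or gained (right) region, for 24 h minus 0 h (red) and for replicate 2 minus 1 at each time (blues). Under 5 kb the shift is 4.28 points beside lost and −1.65 points beside gained regions, while the replicate differences stay within 0.62 points of 0.

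The median peak width of kept regions did not differ between times beyond the spread of the replicates. In the 68375 kept regions with exactly 1 peak in each library, the median width was 479 and 392 bp in the 0 h libraries and 405 and 414 bp in the 24 h libraries, means of 435.5 ± 61.5 and 409.5 ± 6.36 bp (SD, n = 2; exact two-sided permutation p = 1). Both 24 h medians lay between those of the 0 h replicates. The median log2 ratio of width at 24 h over 0 h was −0.06, and without 0h replicate 1 it turned to 0.05. Between the 0 h replicates the median log2 ratio was −0.21, larger in size than in any of the 4 pairs between times, which ran from −0.16 to 0.05. The spread of the ratio over regions did differ. Its SD was 0.474 to 0.536 in the pairs between times, and 0.441 (0 h) and 0.422 (24 h) between replicates.

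Widths that differed by over 2-fold were found for 7.47% of these regions between the 0 h replicates, 3.67% between the 24 h replicates and 6.55% to 8.28% between times, ranges that overlap. After each width was divided by the median of its list, 1479 of these regions (2.16%) narrowed and 719 (1.05%) widened by at least 2-fold with no overlap between times. Dividing by the median of the kept 1-peak regions instead, an alternative added after seeing the data, gave 1077 and 1004, so the excess of narrowing depended on the scaling. Under the first scaling, 1066 of the narrowed regions also had both 24 h ranks below both 0 h ranks and 44 had the reverse, while 565 of the widened regions had higher ranks and 10 lower ones. Among all 75732 kept regions, 16684 had both 24 h ranks below both 0 h ranks and 19380 had the reverse. Width and rank come from the same peaks and are not independent measures. Narrowed regions had median widths of 589 and 509 bp before and 207 and 213 bp after 24 h.

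The region that narrowed most was 7:121221772-121222838, where peaks of 1047 and 950 bp (0 h) and 1037 and 857 bp (1 h) stood beside peaks of 147 and 136 bp (24 h). The last 2 are the shortest widths in their lists. The next was 21:28526908-28528034, with 1094 and 908 bp before and again 147 and 136 bp after 24 h, where the rank fell from 89.0 and 92.4 to 7.85 and 5.81. At 1:12535381-12536548 and 13:52966512-52967766 the widths went from 930 bp or more to between 138 and 213 bp. Their ranks were already low at 0 h, 13.5 and 10.4 in the first and 22.9 and 17.3 in the second. They shifted by −7.74 and −10.7 points, to 6.73 and 1.72 and to 13.1 and 5.81, with little room to fall farther. The fifth, 6:90216377-90217340, measured 964 and 850 bp, then 152 and 162 bp. At 7:121221772-121222838 the summits lay at 121222463 and 121222505 (0 h) and at 121222152 and 121221960 (24 h). In all of these regions except 13:52966512-52967766, each 24 h summit lay farther from both 0 h summits than its peak was wide. Those 24 h peaks thus did not reach the 0 h summits.

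In 4 of the 5 regions that widened most, the peak of 0h replicate 1 had 155 bp, the shortest width in its list. X:20050225-20051065 grew from 155 and 121 bp to 691 and 743 bp, with 586 and 525 bp at 1 h. X:84307051-84307909 went from 155 and 142 bp to 689 and 839 bp, and 11:61093213-61093827 from 155 and 112 bp to 615 and 559 bp. The others were 20:48151444-48152061 and 2:4529007-4529760. All 5 also ranked higher in both 24 h libraries than in both 0 h libraries.

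Summits kept their place in general. The median distance between the summits of 2 libraries was 42 bp between the 0 h replicates, 32 bp between the 24 h replicates and 33 to 37 bp in the 4 pairs between times. The mean distance between times was thus 2.25 bp below that within times, a difference that turned to 2 and 2.5 bp above it without 0h replicate 1 and 2. In the fallen regions the medians were 40 to 44 bp between times and 29 and 43 bp within a time, and in the risen regions 29 to 33 bp and 39 and 21 bp, so that the ranges overlapped in both classes.

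**Figure D5:**
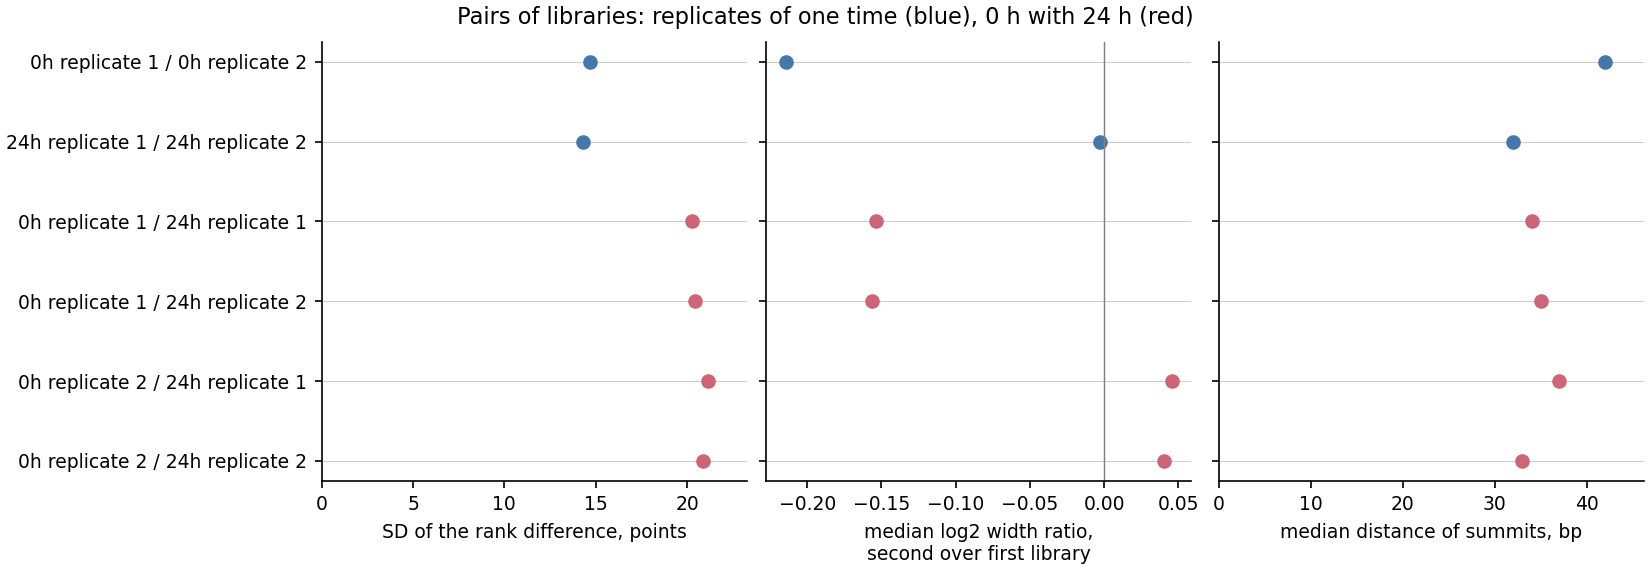
SD of the rank difference (left, points), median log2 ratio of peak width (middle) and median distance between summits (right, bp) in each of the 6 pairs of libraries, with replicates of one time in blue and 0 h with 24 h in red. Among the measures drawn, only the rank difference separates the 4 pairs between times, at 20.3 to 21.1 points, from the 2 within a time, at 14.7 and 14.3 points. The SD of the log2 width ratio, not drawn, also separates them, at 0.474 to 0.536 between times and 0.441 and 0.422 within a time.

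Large summit moves were listed where both replicates of each time agreed closely. In 8669 regions (12.7% of the 68375) the summits of both replicates lay within 20 bp of each other at each time, and the median move between the mean positions was 11.5 bp. This choice fixes the spread within a time, so the moves are a description with no replicate value to set them against. Without it, 14.2% to 15.8% of summits differed by over 100 bp between times, and 15.3% and 14.1% between replicates. Of the 8669 regions, 138 (1.59%) moved by over 100 bp and 43 by over 200 bp, and 6 of the 138 (4.35%) fell or rose in rank, compared with 4.15% of all kept regions. The largest move, 910.5 bp, was at 5:180633696-180634978. Its summits lay at 180633852 and 180633868 before and at 180634776 and 180634765 after 24 h, while its peaks kept widths of 1226 to 1271 bp and ranks of 18.3 to 25.7. Here the highest point changed ends within a peak of stable outline. At 5:124744949-124746162 and 3:64253659-64254908 the moves were 560 and 531 bp. They were 495.5 and 489.5 bp at 6:73737503-73738366 and 1:12535381-12536548, the last being one of the narrowed regions. The 24 h peaks measured 151 and 293 bp at 6:73737503-73738366 and 213 and 151 bp at 1:12535381-12536548. In both regions they did not reach the 0 h summits, so these moves compare different places within a region.

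In the 7357 kept regions with more than 1 peak in some library, 93 summits of the 0 h libraries lay outside every peak of both 24 h libraries. In the other direction, 28 summits of the 24 h libraries lay outside every 0 h peak. The regions with such summits are 0.123% and 0.0370% of all kept regions. The 68375 regions with exactly 1 peak in each library were not searched. Some of these, such as 7:121221772-121222838, also had 24 h peaks that did not reach the 0 h summits. Summits were matched between replicates within 50 bp, and a tolerance of 100 bp gave 149 and 39. When every peak had to reach a −log10 q of 5 these counts were 33 and 9. The lost summit of highest percentile was in X:90585828-90586885, the region with the largest fall, followed by 2:216399929-216400827 with folds of 11.9 and 13.1 at 0 h, 16:10613926-10614814 with 11.6 and 11.7, 20:16635186-16636554 with 11.7 and 11.3, and 2:69309804-69310848 with 10.5 and 11.7. The gained summits had lower within-file percentiles: the first, at 54.3 compared with 97.2 for the first lost one, was in 4:154413921-154415115, where 24 h folds were 6.78 and 6.93. The other 4 were in 7:24020975-24021642, 19:33922948-33924288, 7:29674963-29675671 and 4:131776657-131777496, with folds of 4.74 to 6.46.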

How the data were processed

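The authors deposited 1 list of MACS2 peaks per library. FastQC, fastp, Bowtie2 and MACS2 with hg19 were used, per the submitters' processing notes; versions, read shifting and duplicate removal are not given in the sources used here. Each deposited peak has a fold (ratio), a −log10 p, a −log10 q and a score. The lowest −log10 q, about 1.3, corresponds to a q threshold of 0.05. Relative depth was recovered from the deposited fold and −log10 p assuming MACS2's usual formulas; pileups matched within 0.001.

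Peaks were merged with Python 3.11.15 (pandas 2.3.3, scipy 1.17.1). The highest fold of a region was ranked among kept regions and tested with limma 3.58.1 in R 4.3.3 (intensity trend, Benjamini-Hochberg over all 75732 regions, threshold 0.05); the script was tested on simulated data. Values per library were compared with exact permutation tests. Presence, width and summits are described by the 6 pairs of libraries.

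Members, lists and rules were chosen with earlier results of these data known. Named regions are the 5 widest and 5 strongest lost and gained, the 5 largest falls, rises, narrowings, widenings and summit moves, and the 5 strongest lost and gained inner summits (matched within 50 bp). Inner summits were sought only in kept regions with more than 1 peak in some library. Alternatives were 50% cover, 500 bp summit windows, lists of one length, a −log10 q minimum of 5, other scales, a replicate block and omission of each library. Motifs and genes were not analysed here.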

Additional observations from a re-analysis of the deposited data

How the results depend on the processing

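Counts of lost and gained regions stayed within 1.5 times under 50% cover, 500 bp summit windows, lists of one length, a −log10 q minimum of 5 and all chromosomes. Leaving out one library eases the condition on its time. It gave 16901 to 27047 lost and 8806 to 16810 gained regions, and losses and gains were nearly equal (16901 and 16810) without 24h replicate 1. The median log2 width ratio ran from −0.15 to 0.05 and turned positive only without 0h replicate 1 (0.0547). The excess of summit distance ran from −7 to 2.5 bp and turned positive without 0h replicate 1 (2 bp) and 0h replicate 2 (2.5 bp). Lost inner summits numbered 149 with a 100 bp tolerance, and a −log10 q minimum of 5 left 33 lost and 9 gained ones.

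For ranks, limma called 0 regions in each direction in the percentile fit, with within-file percentiles, 1-peak regions, a −log10 q minimum of 5 or the replicate block. Normal scores gave 1702 lower and 1440 higher, and −log10 p in place of fold 2573 and 2576; the cause was not tested. Leaving out one library gave 0 lower each time and 0 to 493 higher, with 493 without 0h replicate 1 and 194 without 0h replicate 2; the lone library is then assumed to vary like the others. The normal-score fit gave 3267 lower and 3583 higher with −log10 p in place of fold, 1071 lower at a −log10 q minimum of 5, and 1666 to 3325 lower and 1065 to 3941 higher with one library left out. Omitting 0h replicate 1 gave 3325 and 3941, and omitting 0h replicate 2 gave 2960 and 2886. With the replicate block it called 2144 and 1925. No label explains the replicate numbers, and over kept regions the replicate differences at 0 h and 24 h correlated at r = 0.040, so the libraries were treated as unpaired. The alternatives to the normal-score fit were added after seeing the data. The lowest fold found at background, 3.04 and 3.10 at 0 h and 3.35 and 3.03 at 24 h, limits which peaks could be listed.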

Other observations

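Shifts in rank of neighbouring kept regions less than 2 kb apart were inversely related, with a Pearson correlation of −0.23 across 6502 neighbour pairs, which share libraries and background. The replicate differences of the same pairs correlated at −0.08 at 0 h and −0.15 at 24 h. At 2 to 10 kb the correlation of the shifts was −0.04 and at 10 to 50 kb 0.03. Isolated regions, over 100 kb from any other kept region, changed most often among 4 distance classes: of 1570, 66 fell and 68 rose (4.33%), compared with 1.32% and 1.17% of the 20193 regions with a kept neighbour under 5 kb away.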
